A study of Rattus norvegicus with 2 samples.

Results

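Among single IEC-6 cells, an epithelial line from rat small intestine, a minority had transcripts of Plxna4a, Nkain4, Zfp385d or Wfdc21. A cell was a member when it had 500 or more counts and the counts of those 4 genes summed to 1 or more, which held for 769 of 9170 cells. In the TNF library, from cells exposed to 100 ng/mL of recombinant rat tumor necrosis factor for 72 hours in each of 10 cycles, 178 of 3457 cells were members. The control library had 591 members among 5713 cells, and its label carries the same text on 10 cycles of the cytokine, which does not say whether control cells went through them or what they received. Each library's members were set against its own comparison cells, which had 2000 or more counts and none of the 4 genes (2344 TNF cells and 3460 control cells). The remaining 935 and 1662 cells had none of the 4 genes and under 2000 counts, and entered neither group.

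The series has 1 library per condition, and the members were chosen by the measured counts of the 4 genes. So no test was made, and a count of genes rests on a fixed size with an interval for counting error. The titles of the libraries also begin with different prefixes, so preparation and treatment cannot be told apart. Total counts were 14604393 in the TNF library and 24209394 in the control library. Members were about as deep as comparison cells, with medians of 4166 and 4622 counts in the TNF library and of 4048 and 4004.5 in the control library. Mitochondrial transcripts took a median of 3.49% of members' counts and 3.19% of comparison cells' counts of the TNF library, against 3.72% and 3.41% in the control library. Cells above their library's 99th percentile of depth made up 2.81% of members and 1.28% of comparison cells of the TNF library, and 4.06% and 0.983% in the control library. The part of doublets in the results below was not tested. The epithelial markers Krt8 and Cdh1 and the intestinal factor Cdx2 were present in both libraries (2193 and 2456, 313 and 424, and 43.1 and 90.0 counts per 1000000). Epcam, an epithelial adhesion molecule, had 4 counts in each library, and Vil1, a brush border protein, had 5 and 13.

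Plxna4a encodes plexin A4, a receptor through which secreted class 3 semaphorins, together with neuropilins, guide growing axons and other moving cells. Nkain4 encodes a membrane protein that interacts with the sodium pump, Zfp385d a zinc finger protein, and Wfdc21 a small secreted protein with a whey acidic protein domain, a fold shared with many protease inhibitors. Fibril-forming collagens, basement membrane proteins and secreted growth factors, which recur below, are products that gut epithelium and its neighbouring connective tissue exchange.

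Promoters are printed for Wfdc21, the rule gene with an entry in the sequence table, and for Adamts3 and Fras1, the genes that led those raised in both libraries by the smaller of their 2 ratios. Each is 300 bases from RefSeq's GRCr8 assembly, from 250 bases before to 50 bases after the start site, read 5′ to 3′ on the gene's strand. Capitals mark motif matches on either strand.
Wfdc21 (chr10:69125086-69125385, plus strand): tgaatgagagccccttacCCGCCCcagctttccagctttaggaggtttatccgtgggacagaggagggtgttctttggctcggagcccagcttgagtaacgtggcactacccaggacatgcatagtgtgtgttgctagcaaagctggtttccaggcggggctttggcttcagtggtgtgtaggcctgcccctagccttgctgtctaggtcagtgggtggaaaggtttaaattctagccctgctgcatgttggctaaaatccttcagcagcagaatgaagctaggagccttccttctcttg
Adamts3 (chr14:18514999-18515298, plus strand): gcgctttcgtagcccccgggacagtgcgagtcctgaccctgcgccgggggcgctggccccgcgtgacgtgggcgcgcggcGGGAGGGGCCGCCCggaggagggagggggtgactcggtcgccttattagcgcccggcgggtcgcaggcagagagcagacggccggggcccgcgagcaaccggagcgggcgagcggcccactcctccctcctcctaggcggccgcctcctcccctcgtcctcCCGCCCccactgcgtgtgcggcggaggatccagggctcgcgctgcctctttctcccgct
Fras1 (chr14:13504615-13504914, minus strand): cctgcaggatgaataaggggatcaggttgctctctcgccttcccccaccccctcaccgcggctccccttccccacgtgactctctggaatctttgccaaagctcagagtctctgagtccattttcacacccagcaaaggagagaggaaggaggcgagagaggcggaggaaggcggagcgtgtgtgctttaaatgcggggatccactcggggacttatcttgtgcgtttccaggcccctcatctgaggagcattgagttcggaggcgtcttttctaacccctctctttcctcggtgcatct
The motifs searched were the TATA box TATAAA, an AP-1 motif TGANTCA, an NF-kB motif GGGANNNNCC, a TEAD motif GGAATG and the GC box GGGCGG. Wfdc21 held 1 GC box. Adamts3 held 2 GC boxes and 1 NF-kB motif, which overlaps 1 of those boxes, and Fras1 held none of the 5 motifs. Among 33469 promoters of the same length, 33.1% held a GC box, 19.3% the NF-kB motif, 14.2% the TATA box, 14.2% the TEAD motif and 7.33% the AP-1 motif. A match describes letters in this window and no binding. Plxna4a, Nkain4 and Zfp385d are named only.

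The 4 genes were scarce in both libraries and differed in which library held more of each. Plxna4a (ENSRNOG00000013072) was at 10.8 counts per 1000000 (CPM) over all TNF cells and 12.8 over all control cells, with counting intervals of 9.20–12.6 and 11.4–14.3 that overlap. Nkain4 (ENSRNOG00000031834) was at 4.11 and 10.2 CPM. Zfp385d (ENSRNOG00000014661) was at 3.42 and 14.3 CPM. In these 2 libraries both genes were at lower levels in the TNF cells beyond counting error, with intervals of 3.14–5.29 against 8.97–11.6 for Nkain4 and 2.54–4.51 against 12.8–15.8 for Zfp385d. Wfdc21 (ENSRNOG00000029668) went the other way, with 5.55 CPM (4.40–6.89) in the TNF library against 2.19 CPM (1.64–2.86) among control cells. A count of Plxna4a was present in 87 and 214 cells, of Nkain4 in 45 and 192, of Zfp385d in 30 and 234, and of Wfdc21 in 43 and 48. The share of cells with Wfdc21, 1.24% (0.902–1.67) and 0.840% (0.620–1.11), had overlapping intervals. Its highest count in 1 cell was 9 in the TNF library and 2 in the control library. In cells thinned to 4000 counts its shares were 0.973% and 0.837%.

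**Figure D1:**
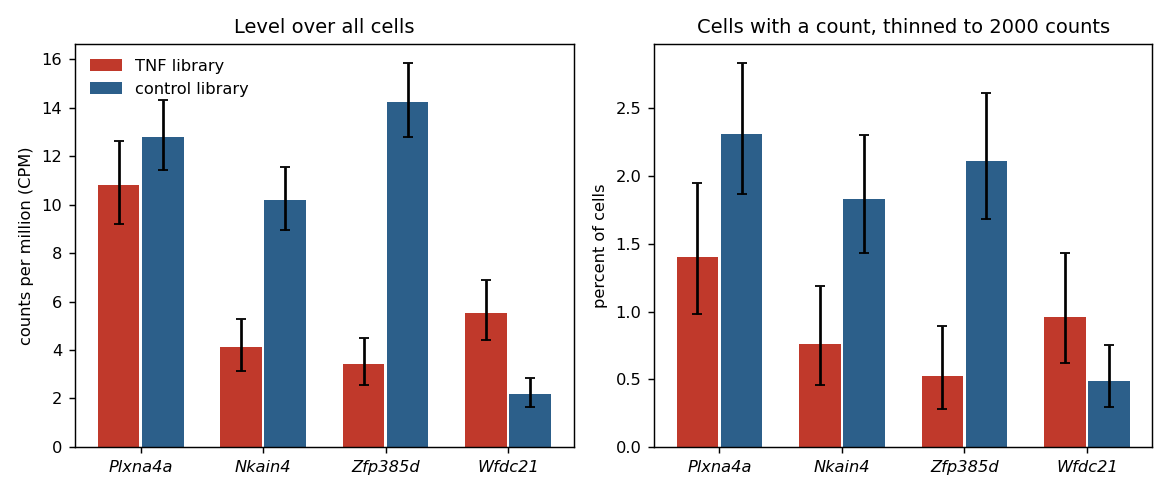
Left, the level of the 4 genes over all cells of each library in CPM, with exact Poisson 95% intervals. Right, the percent of cells with a count after every cell was thinned to 2000 counts, with exact binomial 95% intervals. Nkain4 and Zfp385d stand lower in the TNF library in both plots. Wfdc21 stands higher there, with intervals that overlap in the right plot.

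Since deeper cells are more likely to show a scarce transcript, membership was also read after every cell was thinned to 2000 counts in 1 random draw, which left out 965 TNF cells and 1782 control cells. The share of members was 5.15% (exact Clopper-Pearson 95% interval 4.44–5.94) in the TNF library and 10.3% (9.57–11.2) in the control library before thinning. After it, the shares were 3.49% (2.81–4.29) of 2492 cells and 5.93% (5.21–6.71) of 3931 cells. With 1 library per condition, these intervals describe the 2 libraries and not the conditions. At 1000 and 4000 counts the shares were 2.23% and 3.81%, and 4.74% and 10.0%. The order of the libraries was the same at the 3 depths, while the shares themselves followed the depth. No cell type that should lack these genes was present, so the share that free RNA would give was not measured.

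Membership mostly rested on a single transcript. A summed count of 1, the value just inside the threshold, was found in 108 TNF members (60.7%) and in 425 control members (71.9%). A summed count of 2 was found in 31 and 92 members and of 3 or more in 39 and 74, with a highest value of 12 in each library. Counts of 2 different rule genes were seen in 21 and 75 members, of 3 in 3 and 8, and of all 4 in 0 and 2.

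Plxna4a, Nkain4 and Zfp385d went together in the control library, and Wfdc21 was too rare to place beside them. In control cells thinned to 2000 counts, Nkain4 was present in 17.6% (10.4–27.0) of 91 cells with Plxna4a and in 1.46% (1.10–1.89) of cells without it. Zfp385d was present in 9.89% (4.62–17.9) of cells with Plxna4a against 1.93% (1.52–2.41), and in 9.72% (4.00–19) of 72 cells with Nkain4 against 1.97% (1.55–2.46). Of 19 control cells with Wfdc21, 3 had Plxna4a, or 15.8% (3.38–39.6) against 2.25% (1.81–2.76) of cells without Wfdc21. A count of Nkain4 or Zfp385d was in 0 of them. This number of cells allows up to 17.6% with a count at this depth, which does not bound transcripts too few to be detected. Of 35 TNF cells with Plxna4a, 3 had another of the 4 genes, or 8.57% (1.80–23.1), against 2.12% (1.58–2.77) of cells without it. The other gene was Nkain4 in all 3, against 0.651% (0.373–1.06) of cells without Plxna4a. Of 19 TNF cells with Nkain4, 4 had another of the 4 genes, or 21.1% (6.05–45.6), against 2.75% (2.14–3.47) of cells without it. So Plxna4a and Nkain4 were found together in the TNF library too, on 3 cells. At 2000 counts, 0 of 13 TNF cells with Zfp385d had another rule gene, which allows up to 24.7% with a count. Other depths differed: at 1000 counts 2 of 16 did, or 12.5% (1.55–38.3), against 1.77% (1.35–2.27) of cells without Zfp385d. With cells thinned to 4000 counts, 4 of 8 did, or 50% (15.7–84.3), against 4.24% (3.29–5.37). At that depth, 25.6% (13.0–42.1) of TNF cells with Plxna4a had another rule gene against 2.26% (1.57–3.15) of those without.

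Across the other genes, members carried more transcript than comparison cells of some genes in both libraries, among them Adamts3, Fras1, Col3a1, Col1a1 and Bmp6. A gene was compared when it reached 10 CPM in either cell group. It was called higher or lower when the ratio of members over comparison cells was at least 1.5 in that direction and its exact binomial 95% interval lay clear of 1, with no adjustment for the number of genes. Of 8336 genes in the TNF library, 492 (5.9%) were called higher and 139 (1.67%) lower. Of 8349 genes in the control library, 176 (2.11%) were called higher and 60 (0.719%) lower. Both libraries called 101 of 7887 genes (1.28%) higher and 5 (0.0634%) lower, and 0 in opposite directions. The 101 genes were 20.5% of the genes called higher in the TNF library and 57.4% of those in the control library.

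The 101 shared genes had a median log2 ratio of 1.26 in the TNF library and 0.83 in the control library, beside 0.03 and 0.01 over all 7887 genes. Their ratio was the larger one in the TNF library in 88 of 101 genes, and was 2 or more in 69 genes in the TNF library and 35 in the control library. The same share over all genes was not taken. Members of the TNF library held fewer counts in total (902417 against 3524405), and more of them had a summed count of 3 or more (21.9% against 12.5%). The part of either in the larger ratios was not tested. The count of shared genes depends on the cells with more than a single transcript: it was 227 with members of a summed count of 2 or more, and 25 with members of a summed count of 1.

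**Figure D2:**
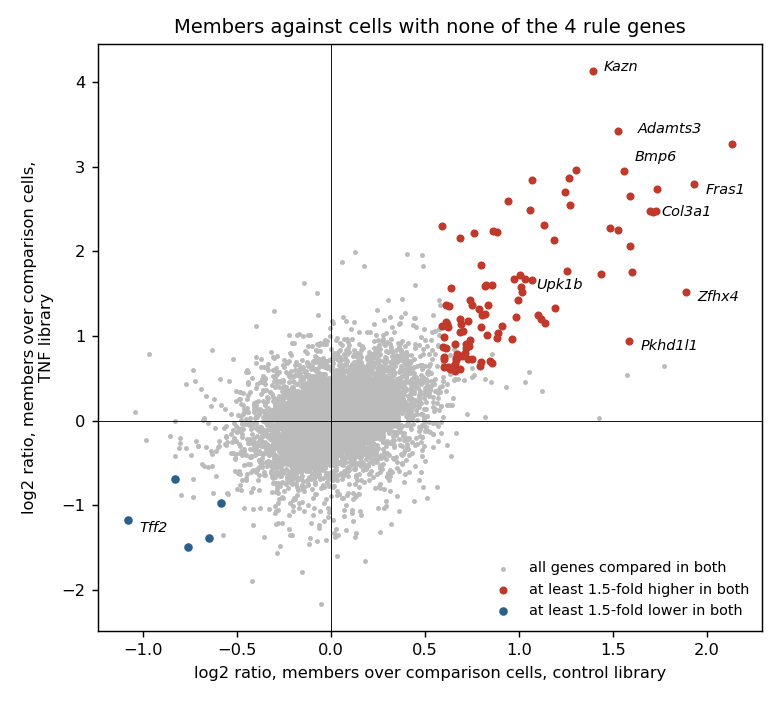
Each point is a gene compared in both libraries, with the log2 ratio of members over comparison cells in the control library on the x axis and in the TNF library on the y axis. The 101 genes called higher in both lie at the upper right, led by Kazn on the y axis and Adamts3 on the x axis, and the 5 genes called lower in both lie at the lower left.

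By the smaller of both ratios, Adamts3 and Fras1 stood first and Col3a1 sixth among the shared genes. Adamts3, a metalloprotease that trims procollagens and activates the lymphatic growth factor VEGF-C, was at 74.2 CPM in members and 7.69 CPM in comparison cells of the TNF library, a ratio of 9.65 (6.95–13.3). In the control library it was at 37.5 and 8.53 CPM, a ratio of 4.39 (3.45–5.58). Comparison cells of both libraries thus lay near the same low level, and a count of Adamts3 was present in 23.0% of members of the TNF library against 2.99% of comparison cells, and in 14.9% against 3.73% of control cells.

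Fras1, a basement membrane protein, was at 79.8 and 11.5 CPM in the TNF library, a ratio of 6.94 (5.15–9.28), and at 43.1 and 11.3 CPM among control cells, a ratio of 3.82 (3.07–4.73). Col3a1, the chain of type III collagen, was at 18.8 and 3.40 CPM in the TNF library, a ratio of 5.54 (2.96–9.94) from 17 counts in members. Among control cells it was at 92.8 and 28.6 CPM, a ratio of 3.25 (2.82–3.74). Its TNF members therefore stood below the control library's comparison cells, while the ratio within each library was raised. Col1a1, a chain of type I collagen, was at 1107 and 326 CPM in the TNF library, a ratio of 3.40 (3.17–3.65), and at 670 and 280 CPM among control cells, a ratio of 2.39 (2.28–2.51).

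Of the list of collagens and matrix proteins, 7 of 21 genes compared were called higher and 0 lower in the TNF library, and 4 of 19 were called higher and 0 lower in the control library, with median log2 ratios of 0.37 and 0.18 beside 0.03 and 0.02 over all genes compared in each library. The counts of this and the following lists stand beside 5.9% higher and 1.67% lower over all genes in the TNF library, and 2.11% and 0.719% in the control library. Col1a1, Col3a1, Col4a6 and Col18a1 were called in both. Col4a6, a chain of basement membrane type IV collagen, had ratios of 7.77 (5.29–11.3) and 2.47 (1.81–3.33). Eln, which encodes elastin, was called higher in the TNF library, from 6.56 to 48.8 CPM, while in the control library it was at 5.43 CPM in comparison cells and 5.96 CPM in members, under the 10 CPM minimum. The list of mesenchymal genes had 3 of 18 called higher in each library, Col1a1 and Col3a1 in both. Its most general marker, Vim (vimentin), was not called, at 1538 CPM in members and 1694 in comparison cells of the TNF library and at 2582 and 2836 CPM in the control library.

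Several of the shared genes encode secreted signals, for which no list of their own was made, though Bmp4 is also in the list of TGF-beta response genes. Bmp6, a bone morphogenetic protein ligand, was at 141 CPM in members and 18.3 in comparison cells of the TNF library, a ratio of 7.69 (6.14–9.60), and at 20.7 and 7.03 CPM among control cells, a ratio of 2.94 (2.18–3.96). Bmp4, of the same family, had ratios of 7.14 (4.17–11.9) and 2.10 (1.59–2.75). Rspo1, which strengthens Wnt signals at the cell surface, had ratios of 6.30 (3.67–10.5) and 3.02 (2.24–4.04). Members thus held more transcript of these 3 genes in both libraries.

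The chemokine gene Cxcl12 was at 57.6 and 13.8 CPM in the TNF library and at 18.7 and 6.20 CPM in the control library, ratios of 4.16 (2.99–5.71) and 3.02 (2.19–4.13). Cxcr7, a receptor that takes up and removes the same chemokine, was called higher as well, with ratios of 1.69 (1.28–2.20) and 1.52 (1.41–1.63). Rarres2, which encodes the attractant chemerin, had ratios of 5.54 (3.61–8.34) and 3.32 (2.24–4.88). Vegfc, the growth factor that Adamts3 activates, had ratios of 1.84 (1.30–2.55) and 1.66 (1.35–2.04). Cxcr7 and Vegfc were picked out of the 101 after their values were seen.

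The remaining genes among the 15 highest shared ratios were of mixed function, with 1 gene that has an identifier in place of a name left out. Kazn, which encodes kazrin, a protein found at desmosomes, had the largest ratio of them in the TNF library, at 379 and 21.6 CPM or 17.5 (14.9–20.7). Control cells had it at 28.7 and 10.9 CPM, a ratio of 2.63 (2.05–3.36). The difference between the libraries was not tested. A count of Kazn was present in 42.7% of members and 7.94% of comparison cells of the TNF library, and in 12.5% and 5.14% in the control library. Cdon, a co-receptor for Hedgehog ligands, had ratios of 5.53 (4.20–7.23) and 3.28 (2.49–4.31). Prkg1, a cGMP-dependent protein kinase, had ratios of 6.68 (3.71–11.7) and 3.32 (2.44–4.51).

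Fam198b had ratios of 3.37 (1.82–5.89) and 3.03 (2.05–4.44), and Cdc42ep2, an effector of the small GTPase Cdc42, had 4.76 (2.86–7.67) and 2.88 (2.23–3.71). Zfhx4, a large homeobox and zinc finger protein, had 2.86 (1.48–5.14) and 3.71 (2.67–5.12), and was the gene of these 15 whose ratio was larger in the control library. Fam198b and Zfhx4 rested on 16 and 14 counts in members of the TNF library. With members of a summed count of 1, 8 of the 15 genes were called in both libraries and Fam198b was at 0.874 in the control library. With cells thinned to 2000 counts 12 were called, without Col3a1, Fam198b and Zfhx4.

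Some shared genes are known from body cavity linings, though no list of these was fixed. Muc16, a membrane mucin, had ratios of 3.31 (2.39–4.51) and 2.71 (2.15–3.39). Upk1b, a tetraspanin of urothelium and mesothelium, was at 89.8 and 28.1 CPM in the TNF library, a ratio of 3.20 (2.48–4.08), and at 203 and 99.5 CPM among control cells, a ratio of 2.05 (1.87–2.23). Cldn15, a claudin that forms cation channels in tight junctions, had ratios of 3.16 (1.53–6.00) and 2.10 (1.53–2.84). Wt1, a transcription factor of mesothelium and developing kidney, was at 227 and 151 CPM in the TNF library, a ratio of 1.51 (1.30–1.74), and at 205 and 130 CPM among control cells, a ratio of 1.58 (1.45–1.72).

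These 4 genes were not particular to members, since comparison cells expressed each of them. For Wt1 the call in the TNF library rested on members with 2 or more counts of the rule genes: with a summed count of 1 its ratio was 0.999, and outside the cluster described below it was 0.959. Msln, which marks mesothelium, and Upk3b were not called, with Msln at 250 and 192 CPM in the TNF library and 419 and 318 CPM in the control library. Upk1b, Cldn15, Wt1, Msln and Upk3b were chosen after their values were seen.

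Of NF-kB targets, 4 of 25 genes compared were called higher and 1 lower in the TNF library, and 3 of 26 higher and 0 lower in the control library. The 3 shared ones were Lcn2, C3 and Cxcl3. Lcn2, a protein that keeps iron from bacteria, was at 67.6 and 13.9 CPM in the TNF library and at 15 and 5.37 CPM in the control library, ratios of 4.85 (3.56–6.54) and 2.80 (1.96–3.95). C3, the central complement component, had ratios of 5.83 (4.58–7.39) and 2.42 (1.78–3.25). The chemokine Cxcl3 had ratios of 4.39 (2.38–7.70) and 2.27 (2.03–2.54). The medians of the list were 0.21 and 0.10, beside 0.03 and 0.02 over all genes compared.

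A further 5 shared genes were picked after their values were seen. Slc39a8, a zinc and manganese importer, had ratios of 2.51 (2.06–3.04) and 2.28 (2.06–2.52). Cp, the copper-carrying ferroxidase ceruloplasmin, was at 366 and 168 CPM in the TNF library and at 345 and 228 CPM in the control library, ratios of 2.18 (1.93–2.45) and 1.51 (1.42–1.61). Tf, the iron carrier transferrin, had ratios of 1.87 (1.28–2.65) and 1.58 (1.30–1.90). Ddah1 and Ddah2, which break down an inhibitor of nitric oxide synthases, were both shared, with ratios of 4.46 (3.24–6.06) and 4.64 (3.38–6.31) in the TNF library and of 1.61 (1.30–1.99) and 1.69 (1.37–2.08) in the control library.

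Among the genes of plexin and semaphorin signalling, the pathway of the rule gene Plxna4a, 2 ligands were higher in both libraries. Of 23 genes compared in the TNF library, 4 were called higher and 1 lower, and in the control library 2 of 23 were called higher and 0 lower. The medians of the list, 0.06 and 0.04, were near the 0.03 and 0.02 of all genes compared. Sema3a and Sema3c, class 3 semaphorins, were called in both. Sema3c was at 1828 CPM in members and 1094 in comparison cells of the TNF library, a ratio of 1.67 (1.59–1.76), and at 1115 and 704 CPM among control cells, a ratio of 1.58 (1.53–1.64). Sema3a had ratios of 1.72 (1.35–2.18) and 1.59 (1.34–1.89). The related receptor gene Plxna2 was not called, with ratios of 0.759 and 0.862. With members of a summed count of 1, neither Sema3a nor Sema3c was called in either library, with Sema3c at 1.35 and 1.26.

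Few partners of the other rule genes were called. Of the sodium pump and its partners, 1 of 6 genes was called higher (Atp1b1, a beta subunit, 1.57) and 1 lower (Fxyd5, 0.647) in the TNF library, and 0 higher and 1 lower (Fxyd2, 0.626) in the control library. The relatives of Zfp385d had 0 of 3 called in each library, with Zfp385a at 0.926 and 0.979. Of protease inhibitors with WAP or Kunitz domains, 1 of 4 was called higher in the TNF library, Slpi at 4.89 (2.52–9.0), and 0 of 2 in the control library.

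YAP is a transcriptional co-activator held back by the Hippo pathway. The list of its targets had 6 genes called higher in the TNF library and 1 in the control library, beside 5.9% and 2.11% over all genes. In the TNF library 6 of 20 genes were higher and 0 lower (median log2 ratio 0.38), and in the control library 1 of 17 was higher and 0 lower (median 0.29). Rbms3, an RNA-binding protein, was called in both, at 2.70 (2.21–3.26) and 1.67 (1.39–2.00). Ankrd1, a standard YAP target, was called in the TNF library at 2.34 (1.67–3.21). Amotl2, which binds YAP, had ratios of 1.85 (1.57–2.17) and 1.49 (1.33–1.66), the second just under the size required. The difference between the libraries was not tested.

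TGF-beta response genes had 5 of 19 called higher in the TNF library and 2 of 17 in the control library, with 0 lower in each. Tgfb3, a TGF-beta ligand, and Bmp4 were shared, and Tgfbr1 and Tgfbr2, the receptor chains, were called in the TNF library at 2.54 (1.29–4.63) and 1.88 (1.64–2.15). Tgfbr2 in the control library was at 1.22 (1.08–1.36). Wnt and Notch genes had 4 of 15 called higher in the TNF library and 0 of 16 in the control library. Among the 4 were Tcf7l2 at 1.69 (1.26–2.22) and Jag1 at 1.68 (1.03–2.63), and control ratios of these were 1.16 (1.04–1.30) and 0.759 (0.540–1.04).

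Few genes were lower in both libraries. Tff2, a secreted trefoil peptide that protects mucosa, was at 233 CPM in members and 522 in comparison cells of the TNF library, a ratio of 0.446 (0.387–0.511). Among control cells it was at 59.6 and 126 CPM, a ratio of 0.474 (0.409–0.546). A count of Tff2 was present in 35.955% of members and 54.394% of comparison cells of the TNF library. In the control library a count was present in 24.196% of members and 22.89% of comparison cells. Control members were thus lower in summed level and not less often positive. With the mean of each cell's CPM, Tff2 was no longer called lower in both libraries. In the TNF library, members with 2 or more counts of the rule genes had less Tff2 than those with 1. It was at 324 CPM (279–375) at a summed count of 1, 58.5 (23.5–121) at 2 and 91.4 (55.9–141) at 3 or more. Control members had 64.3 (54.1–75.9), 52.5 (37.5–71.5) and 51.1 CPM (34.5–72.9), with intervals that overlap.

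Tnfaip6, a hyaluronan-binding protein induced by inflammation, had ratios of 0.510 (0.269–0.883) and 0.666 (0.557–0.792). B3galt4, a galactosyltransferase of gangliosides, and Lpcat2, an enzyme of phospholipid remodelling, had 0.356 (0.0957–0.929) and 0.384 (0.139–0.849) in the TNF library, from 4 and 6 counts in members, and 0.592 and 0.638 in the control library. Calls of these 3 genes were lost in 10 to 12 of 19 alternative settings and that of Tff2 in 2, and B3galt4 in the TNF library was at 1.10 with a summed count of 3 or more.

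Genes of cell division and energy metabolism were seldom called. Their medians lay below those of all genes compared, 0.03 in the TNF library and 0.02 in the control library. For some lists the interval of the median included the value of all genes. Of G2M genes, 0 of 49 were called higher and 2 lower (Fam64a 0.586 and Kif23 0.537) in the TNF library, and 0 of 50 were called in the control library, with medians of −0.13 and −0.18. S phase genes had 0 of 34 and 0 of 35 called, with medians of −0.09 and −0.02. Glycolysis genes had 0 of 15 and 0 of 14 called, with medians of −0.20 and −0.22. Ldha, which makes lactate, was at 823 and 1074 CPM in the TNF library and at 1340 and 1741 CPM in the control library. Nuclear genes of oxidative phosphorylation had 0 of 51 called in each library, with medians of −0.12 and −0.04. Cholesterol synthesis had 0 of 24 and 0 of 25, with medians of −0.06 and −0.11. Intervals included the value of all genes for S phase in both libraries (−0.14 to 0.10 and −0.08 to 0.04). In the TNF library they also did so for glycolysis (−0.39 to 0.07) and cholesterol synthesis (−0.13 to 0.04), which thus showed no clear shift there. Intervals lay below it for G2M and oxidative phosphorylation in both libraries. The same held for glycolysis and cholesterol synthesis in the control library. Of the enterocyte list 3 genes were compared in each library and 0 called. Of NRF2 targets, 3 of 26 were called lower in the TNF library, among them Akr1b8, an aldo-keto reductase, at 376 and 655 CPM, and 0 of 26 were called in the control library.

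The keratin gene Krt8 was lower in members without reaching the size required, at 1704 and 2234 CPM in the TNF library and at 2012 and 2494 CPM in the control library. Krt18 was called higher in the TNF library at 2.20 (1.60–2.97), and not called in the control library at 1.17 (1.05–1.31). The call of Krt18 rested on cells with Nkain4, since its ratio was 0.858 without that gene in the rule. Cdh1 was at 401 and 299 CPM in the TNF library and at 483 and 409 CPM in the control library, not called in either.

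Apart from Prrx1, genes that mark other states of these cells differed from comparison cells by less than the size required. Dclk1, a kinase that marks tuft cells, was at 312 and 268 CPM in the TNF library and at 254 and 249 CPM in the control library. Lgr5, the receptor of crypt stem cells, had ratios of 0.828 and 0.937, and Syt1, a calcium sensor of secretion, had 1.04 and 0.820 (0.722–0.928). Top2a, of dividing cells, had 0.815 and 0.863, Lgals4, a galectin of differentiated epithelium, 0.865 and 0.701 (0.631–0.777), and Ccl2, a chemokine, 1.35 and 0.997. Prrx1, a mesenchymal homeobox gene, had 0.913 in the TNF library and was under the minimum in the control library with 4 counts in members. None of these 7 genes was called in either library over all members. In the control library, Lgals4 was at 168, 142, 98.5 and 52.8 CPM at summed counts of 0, 1, 2 and 3 or more, and Syt1 at 102, 95.6, 77.5 and 46.0 CPM. Within cluster 0 of the TNF library, described below, Top2a was called higher at 2.18.

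Markers of cells from outside the epithelium were summed by list, and few of them reached the minimum of 10 CPM. Of 24 white blood cell markers, Cd14 alone reached the minimum in each library, and their summed level was 37.7 CPM in members and 44.0 in comparison cells of the TNF library, and 89.1 and 122 CPM in the control library. The defining marker Ptprc had 0 counts in members of the TNF library and 2 in control members. Endothelial markers summed to 103 and 141 CPM in the TNF library and to 72.6 and 83.9 CPM in the control library, nearly all of it Tek, with Pecam1 at 0 and 4 counts in members. Muscle and pericyte markers summed to 95.3 and 102 CPM, and to 113 and 94.4 CPM. Glia and Schwann cell markers summed to 206 and 221 CPM, and to 319 and 387 CPM, and neuronal markers to 301 and 288 CPM, and to 181 and 206 CPM. No gene of these lists was called higher in both libraries.

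The more counts of the 4 genes a cell had, the more it carried of the shared genes in the control library. Summed over the 101 genes, the level was 4529 CPM in control comparison cells, 6203 CPM at a summed count of 1, 9338 CPM at 2 and 13638 CPM at 3 or more, and 82 of the 101 genes were higher at each step than at the one before. In the TNF library it was 5141, 8490, 18774 and 17410 CPM, with 23 of 101 genes higher at each step. So the level rose between 1 and 2 in both libraries and went no further at 3 or more in the TNF library. Since these cells took part in choosing the 101 genes, the size of the rise is a description. The median depth of the groups was 4004.5, 3493, 5764 and 6589.5 counts in the control library and 4622, 4166, 3614 and 4488 in the TNF library, and the part of depth in the rise was not tested. Values of single genes ran the same way: control Adamts3 was at 8.53, 24.4, 35.5 and 88.5 CPM, and control Col1a1 at 280, 442, 763 and 1396 CPM.

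**Figure D3:**
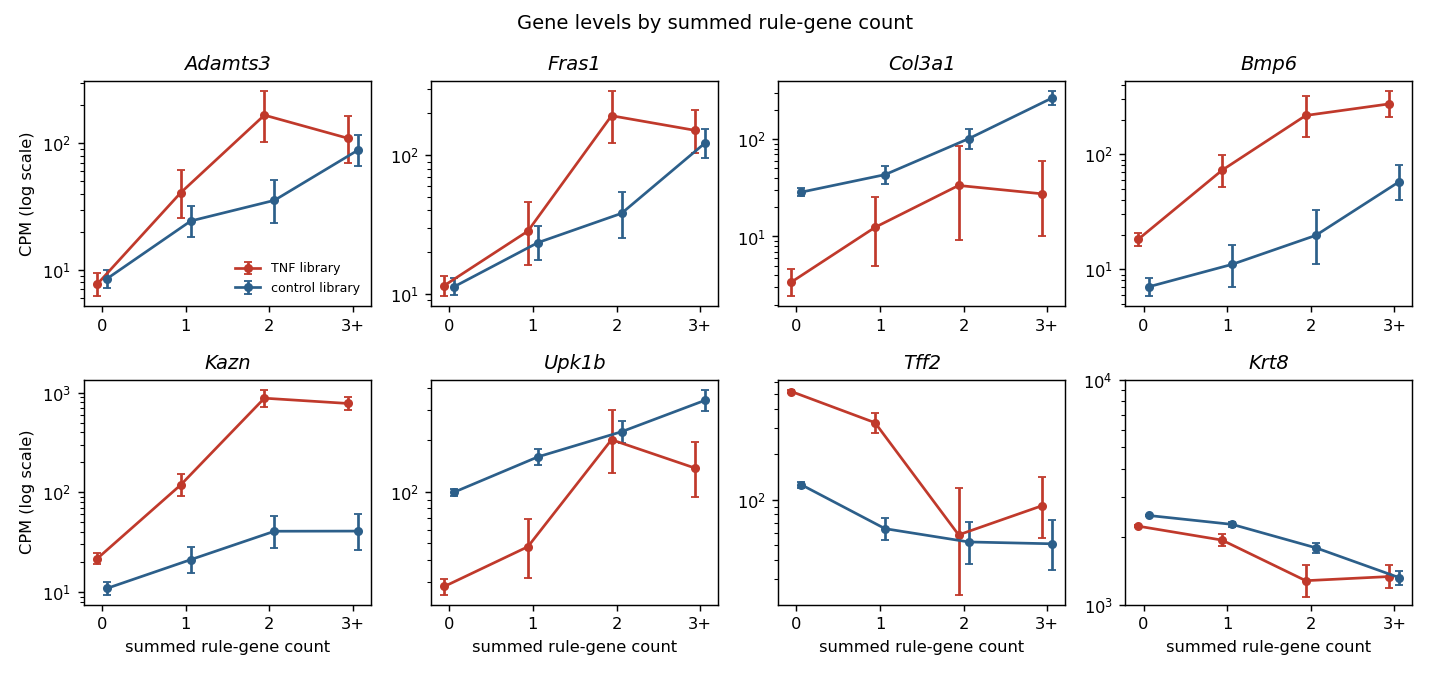
Level of 8 genes in CPM on a log scale, for comparison cells (0) and members by summed count of the 4 rule genes, with exact Poisson 95% intervals. Adamts3, Fras1, Col3a1, Bmp6, Kazn and Upk1b stand higher in members with 2 or more counts than in comparison cells of the same library, and Tff2 and Krt8 stand lower.

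Crossing the libraries gave a reading in cells that had no part in choosing the genes. The 176 genes called higher in the control library were summed in the TNF cells. Members in the TNF library held them at 14637 CPM and comparison cells at 7117 CPM, a ratio of 2.06 (2.02–2.09). Of the 176 genes, 159 had a ratio above 1 in the TNF library, and 139 of the 144 that reached 10 CPM there did. The median log2 ratio of those 144 was 0.96, beside 0.03 over all genes compared. The other way round, the 492 genes called in the TNF library were at 25825 CPM in control members and 19732 CPM in control comparison cells, a ratio of 1.31 (1.30–1.32). Of the 492 genes, 408 had a ratio above 1 there, and 334 of the 403 that reached 10 CPM did. The median log2 ratio of those 403 was 0.29, beside 0.02 over all genes compared. Genes chosen in either library thus stood higher in the members of the other. The 2 ratios rest on different sets of genes, so their sizes do not compare the libraries.

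The lower genes crossed in the same manner. The 60 genes called lower in the control library had a summed ratio of 0.710 (0.668–0.754) in members of the TNF library, and the 139 called lower in the TNF library had 0.839 (0.828–0.851) in control members.

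Cells with a single rule gene differed in how far they showed these profiles. Read with the control library's genes, the summed ratio in the TNF library was 2.25 (2.19–2.32) in 68 cells with Plxna4a alone, 1.83 (1.75–1.92) in 28 with Nkain4 alone, 2.17 (2.05–2.31) in 20 with Zfp385d alone and 1.45 (1.40–1.51) in 38 with Wfdc21 alone. Read with the genes called in the TNF library, control cells had 1.35 (1.33–1.37) with Plxna4a alone, 1.20 (1.18–1.22) with Nkain4, 1.24 (1.23–1.26) with Zfp385d and 1.11 (1.08–1.14) with Wfdc21. Plxna4a stood first and Wfdc21 last in each library, while the intervals of Plxna4a and Zfp385d overlapped in the TNF library. Called over comparison cells in both libraries were 123 of 8026 genes (1.53%) for Plxna4a alone, 38 of 7947 (0.478%) for Nkain4, 29 of 7998 (0.363%) for Zfp385d and 12 of 7925 (0.151%) for Wfdc21, higher in each case, and these counts are a description, since the groups differ in size (148, 139, 179 and 40 control cells). Cells of a summed count of 1 had ratios of 1.52 (1.48–1.56) in the TNF library and 1.16 (1.14–1.17) in the control library, below those of cells with 2 (3.14 and 1.42) or with 3 or more (2.85 and 1.74). These cells all share the comparison cells of their library.

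**Figure D4:**
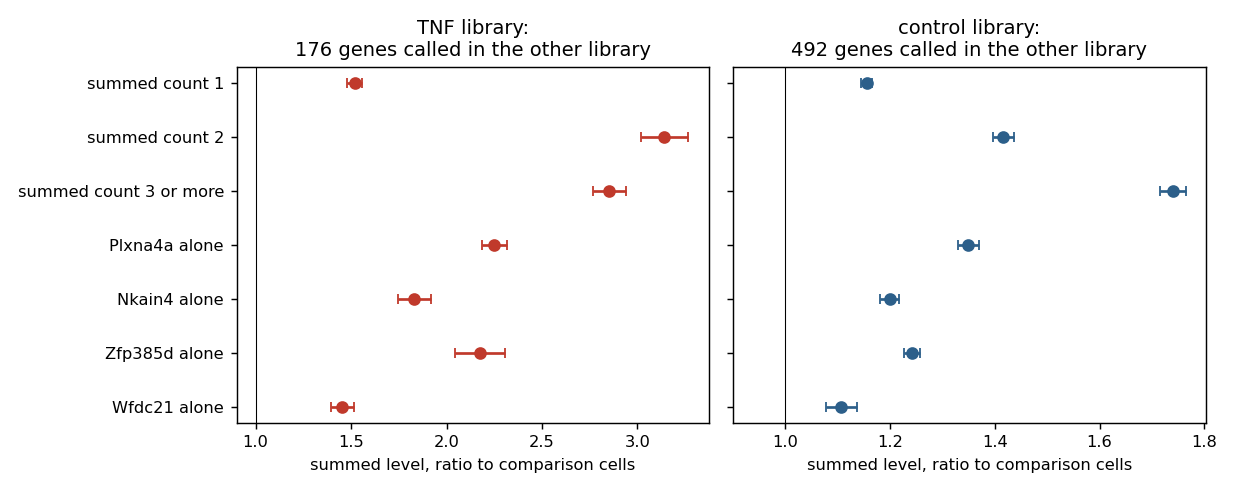
Summed level of the genes called higher in the other library, as a ratio to comparison cells, for members by summed count and for cells with 1 rule gene alone, with 95% intervals for counting error; the x axes differ between the plots. Every group lies above 1, and cells with Wfdc21 alone lie lowest in each library.

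Members gathered in particular clusters of cells made without the 4 genes. In the TNF library, cluster 0, led by Kazn, Slc24a3, Sulf1, C3 and Lcn2, held 103 of its 601 cells as members, or 17.1% (14.2–20.4), against 2.10% to 3.97% in the other 4 clusters. It held 57.9% of all members and 35 of the 39 with a summed count of 3 or more. Cluster 4 of the control library, with Ifit2, Ocm2, Hapln1 and Col3a1 among its leading genes, had 191 of 673 cells as members, or 28.4% (25–32.0), and 52 of the 74 with 3 or more counts. Control cluster 5, led by Syt1 and Map2, followed with 13.3% (11.4–15.5), and the other 4 clusters held 4.29% to 7.72%. The clusters are given by number, since no 3 of the markers used for naming led either cluster.

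**Figure D5:**
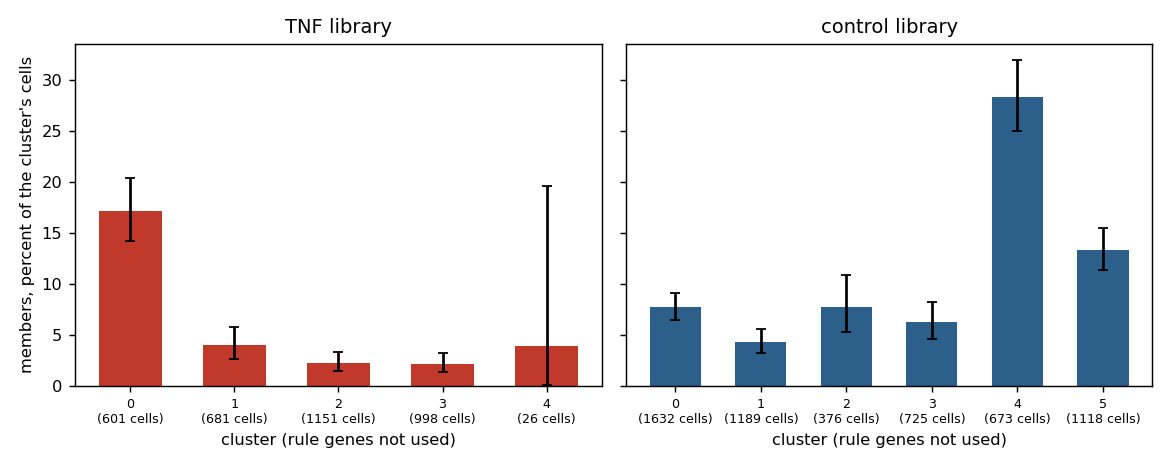
Percent of each cluster's cells that were members, with exact binomial 95% intervals and the number of cells under each bar. Cluster 0 of the TNF library (17.1%) and cluster 4 of the control library (28.4%) stand highest.

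Members stood higher in these genes than their neighbours of the same cluster. With the control library's 176 genes, cells of cluster 0 of the TNF library had a summed ratio of 2.73 (2.67–2.78) in members and 1.39 (1.37–1.41) in comparison cells. Outside it the ratio was 1.24 (1.20–1.29) in members and 0.911 (0.902–0.920) in comparison cells. In control cluster 4, read with the 492 genes called in the TNF library, it was 1.69 (1.67–1.71) in members and 1.34 (1.33–1.36) in comparison cells, and outside it 1.14 (1.13–1.15) and 0.959 (0.954–0.964). Without those 2 clusters 17 genes were called higher in both libraries, in place of 101, and 16 of the 17 were among the 101. Of the 15 genes with the highest shared ratios, Adamts3, Fras1, Cdon and Col3a1 were still called, and the other 11 were not. Within those clusters alone, 75 genes were called in both, 52 of them among the 101.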

How the data were processed

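Single-cell RNA sequencing was done on thawed IEC-6 cells with a 10K Genomics kit, per the labels' protocols, in 1 library per group. The authors deposited whole-number counts for each gene in each cell, with gene and barcode lists. By their values they were not normalized. The genome build was Rnor_5.0 per the submitters' processing notes. The aligner, counter, annotation release and cell filter were not given in the sources used here. Whether counts are of unique molecules is likewise unstated. Each barcode has at least 500 counts, and 24 barcodes occur in both libraries, 2 of them control members. Doublets were left in and no caller was run.

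Counts were summed per library and cell group and scaled to 1000000 (CPM). A group under 3 counts was entered at that floor. Ratios have exact conditional binomial, levels exact Poisson and shares exact Clopper-Pearson 95% intervals, which cover counting error only. They compare cells of a library, which are not replicates. Clusters were made per library without the 4 rule genes and mitochondrial genes, from 2000 variable genes, 30 components, 15 neighbours and Leiden resolution 0.5 (scanpy 1.11.5, Python 3.11.15). The calling and thinning were tested on simulated data.

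The members and the 37 gene lists were chosen with earlier results of these data known. Genes named are the 4 rule genes, 7 markers of other states, the 15 highest and 10 lowest shared genes, of which 5 existed, up to 2 genes per list, and others said to be picked after their values were seen, and a few of these are not reported here. Of the lists, 36 had a gene compared in each library, and 13 of these had 0 genes called in either. The list of nucleus-retained RNAs had 1 gene found and 0 compared. Alternatives changed membership, depth, fold, minimum, scaling, clusters and rule genes. Promoters come from RefSeq's GRCr8 table, matched by symbol, and Plxna4a matched the gene table by a synonym.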

Additional observations from a re-analysis of the deposited data

How the results depend on the processing

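In 19 alternative settings, 5 of them added after seeing the data, the number of genes called higher in both libraries was 101 as reported and 75 to 142 in 12 of them. It was 227 with a summed count of 2 or more, 214 with 3 or more, 25 with a summed count of 1, 162 with the mean of each cell's CPM, 34 at a fold of 2, 32 at a minimum of 50 CPM and 17 without the cluster with most members. Of those 227, 95 were among the 101, and of the 80 genes called after thinning to 2000 counts, 60 were. The number called lower in both, 5 as reported, was 54, 63, 3, 22, 1, 1 and 0 in the same order, and 8 after thinning, 8 without Zfp385d in the rule, 11 without Wfdc21 and 13 within the cluster with most members. The share of members, 5.15% in the TNF library and 10.3% in the control library, was 3.49% and 5.93% with cells thinned to 2000 counts, 2.23% and 3.81% at 1000, 2.02% and 2.91% with a summed count of 2 or more, and 5.94% and 12% in cells of 2000 or more counts. Another rule gene in cells with Plxna4a in the TNF library moved from 8.57% to 25.6% at 4000 counts, and in cells with Zfp385d from 0% to 50%. Of single-gene ratios called in the reported or the alternative setting, these crossed 1. Within the cluster with most members, the ratio in the TNF library was 2.18 for Top2a, 0.781 for Krt18 and 1.26 for Mx1, and the control ratio was 1.06 for Lpcat2 and 0.790 for Ifit2. With a summed count of 1, it was 0.874 for Fam198b in the control library, and 0.903 for Ifit2 and 0.999 for Wt1 in the TNF library. In the TNF library, it was 0.914 for Cxcl12 and 0.959 for Wt1 without that cluster, 1.10 for B3galt4 with 3 or more counts, 0.858 for Krt18 without Nkain4, and 1.54 for Cpe with the mean of each cell's CPM. The cause was not tested. Over all single-gene values, 3340 kept their call or stayed uncalled, 301 lost the call, 138 gained one and these 13 crossed 1. Ratios that crossed 1 without a call in either setting are among the 3340. Control Krt18 was such a ratio, at 1.17 as reported and 0.936 without the cluster with most members. With 1 library per group, leaving out a replicate was not possible. No paired analysis was possible because the libraries share a single replicate number. Depth limits the TNF members, where 1 count is worth 1.11 CPM, most.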

Other observations

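Some genes were called in a single library, which does not show that they were level in the other. In the TNF library, the metalloprotease gene Adamts9 was at 53.2 CPM in members and 4.53 CPM in comparison cells, a ratio of 11.7 (7.81–17.6), and had 5 counts in control members. Limch1, which encodes an activator of non-muscle myosin, was at 16.6 and 0.809 CPM in the TNF library from 15 and 10 counts. In the control library it was higher in members too, at 5.11 and 1.38 CPM, but under the minimum. Its level there was 2.76, 7.88 and 10.2 CPM at summed counts of 1, 2 and 3 or more, from 6 counts each. Cyp4b1, a cytochrome P450 enzyme, was at 53.3 and 17.9 CPM among control cells, a ratio of 2.98 (2.48–3.58), and at 14.4 and 9.88 CPM in the TNF library, a ratio of 1.46 (0.755–2.59). The difference between libraries was not tested for these 3 genes, which were picked after their values were seen.

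Interferon response genes were called in both directions in each library. Ifit2 was called higher in both libraries, at 2.26 (1.24–3.85) in the TNF library and 1.66 (1.25–2.18) in the control library. Mx1 was called lower in the TNF library at 0.499 (0.346–0.699), and Psmb8, a subunit of the immunoproteasome, was called lower in the control library at 0.627 (0.509–0.767). Of the list, 2 of 33 genes were called higher and 2 lower in the TNF library, and 2 of 32 higher and 2 lower in the control library, beside 5.9% and 1.67%, and 2.11% and 0.719%, over all genes. The medians of the list were 0.02 and −0.04, beside 0.03 and 0.02.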
